A study of Mus musculus with 12 samples.

Results

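The promoters of 10 germline genes were followed at single CpG sites in the brain of Tg2576 and wild-type mice. The genes were Dazl, Ddx4, Mael, Asz1, Tdrd1, Sycp1, Sycp3, Hormad1, Slc25a31 and Brdt. Their sites were all listed cytosines of a CpG within 1000 bp of a transcript start (GENCODE vM21 basic set, mm10 build) that had at least 10 reads in at least 6 of the 12 libraries. This gave 452 sites of the 2156659 that met the same read rule anywhere, and 10 of the 21107 genes with at least 3 such sites. All 452 positions fell on a CpG of the reference, and joining the strands left 270 CpGs.

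Reduced representation bisulfite sequencing (RRBS) reads CpG-rich fragments after bisulfite has converted unmethylated cytosines, so the methylation level of a site is the percentage of its reads that kept a C. Each library came from the brain of 1 mouse of about 11 months, dissected so that dorsal hippocampus and cortex were processed together. There were 4 wild-type (Wt) animals, 3 female and 1 male, and 8 Tg2576 (Tg) animals, 4 female and 4 male. Tg mice carry a transgene, driven by a prion promoter, for a mutant form of human APP found in familial Alzheimer's disease, Wt mice lack it, and the labels name no drug or other treatment.

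Germ cells use a set of genes that other cells keep shut, many of them under CpG-rich promoters. In the early embryo these promoters gain DNA methylation, laid down mainly by Dnmt3b and kept through cell division by Dnmt1. A repressor complex that holds Mga, Max and E2f6 recognises E-boxes and E2F sites in many of them. The set is known as a case in which promoter methylation itself, rather than the lack of an activator, holds the gene off in body tissues. No RNA was measured in these libraries, so silencing itself could not be read from them.

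The short sequences that most of these promoters share are shown first, because levels are read against them further on. The E-box CACGTG, which reads the same on both strands, was present in the RefSeq promoter (250 bases before to 50 after the start, GRCm38.p6) of 8 of the 10 genes, against 8.093% of all 27025 genes with a promoter sequence. Among the 11334 protein-coding genes that also had at least 3 measured sites, the share was 11.44%. The E2F core TCCCGC, or GCGGGA on the other strand, was present in 6 of the 10, against 22.05% of all genes and 40.01% of the measured ones. The E-box and the E2F core can share at most 1 base. Below, 30 bases are given around the E-boxes within 250 bp of the start, without that of Asz1. They run along the strand of the gene, with the E-box in capitals. Distances are those of the CpG inside it from the 5′-most annotated start.
Ddx4, +139 (chr13:112652322-112652351, minus strand): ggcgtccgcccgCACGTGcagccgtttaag
Mael, -217 (chr1:166238950-166238979, minus strand): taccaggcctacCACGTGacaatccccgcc
Tdrd1, -9 (chr19:56826186-56826215, plus strand): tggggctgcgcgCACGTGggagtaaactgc
Sycp1, -91 (chr3:102936177-102936206, minus strand): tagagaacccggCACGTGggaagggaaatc
Sycp3, -44 (chr10:88459511-88459540, plus strand): gccgttggctccCACGTGagaacgggcatg
Sycp3, -23 (chr10:88459532-88459561, plus strand): acgggcatggagCACGTGctaggaggcggg
Hormad1, -55 (chr3:95559608-95559637, plus strand): caaagggtgcgcCACGTGccagtgacagtt
Hormad1, -18 (chr3:95559645-95559674, plus strand): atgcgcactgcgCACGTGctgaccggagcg
Slc25a31, -75 (chr3:40708766-40708795, plus strand): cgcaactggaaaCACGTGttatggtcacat
Brdt, -41 (chr5:107331104-107331133, plus strand): cgcaggcacagtCACGTGgcagaccctggc
The RefSeq promoters of Asz1 and Dazl held neither motif. Asz1 had an E-box at +200 bp, outside that promoter and with no measured site in it or within 50 bp, which is not printed.

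Coverage summed over all listed cytosines, in which a read counts once for each site it covers, was lowest in Tg female 4 (33619981) and highest in Tg female 1 (131446104). The library labelled Wt male 1 had a mean chromosome X level of 19.95%, as against 20.67% to 22.98% in the females and 5.498% to 5.669% in the Tg males, so it went against its sex label. It is called by its label here, also in the sex covariate of the genotype fits. Values without it are given for the promoter differences by genotype and by sex. Methylated germline promoters were covered unevenly. Only 96 of the 452 sites (21.2%) were listed in all 12 libraries, against 59.5% of all promoter sites, and the median depth of a site was 22 reads, against 38. Dazl held 60 of those 96 sites. A level for a gene was therefore taken over its sites listed in all 12 libraries where there were at least 3 of them (Dazl, Ddx4, Asz1, Tdrd1 and Slc25a31), and otherwise over the sites each library listed. Neighbouring sites often lie on the same read, so reads summed over sites exceed the number of molecules.

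By the level just defined, the genes other than Dazl had methylated promoters in the brain of both genotypes. Dazl was methylated around its 5′-most start as well. Its low level came almost only from an unmethylated stretch at +506 to +894 bp, which held 58 of its 60 sites listed in all libraries. The mean over animals was 50% or more for 9 of the 10 genes, against 5.74% of the 14693 protein-coding promoters with at least 3 sites, of which 86.8% stood at 10% or less. The median of the 10 genes was 86.6% and that of protein-coding promoters was 0.940%. Of the 452 sites, 346 (76.5%) were at 50% or more and 84 were at 10% or less, and all of the latter lay in Dazl. Over all promoter sites the corresponding shares were 2.93% and 92.9%. The median ratio of observed to expected CpGs was 0.789 in the 10 promoters and 0.773 in measured protein-coding promoters. Of 8372 protein-coding promoters with a ratio of at least 0.6, a level of 50% or more was reached by 70, or 0.836%. All 10 genes had such a ratio.

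**Figure D1:**
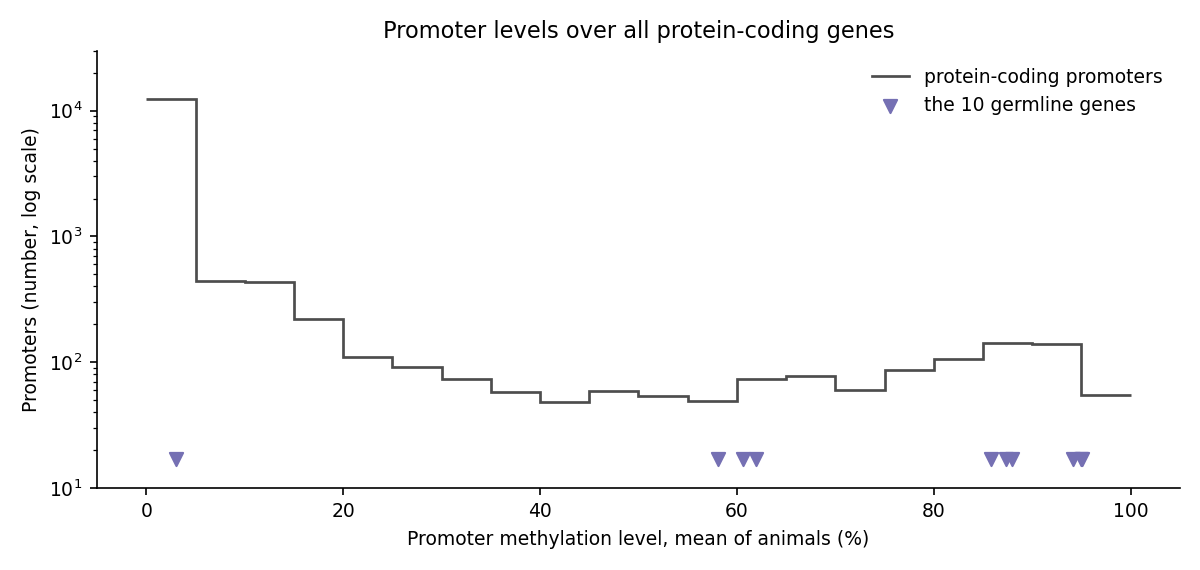
Distribution of the promoter methylation level (mean of animals, x axis) over protein-coding genes with at least 3 sites, as a stepped line of the number of promoters per 5% interval on a log scale, with triangles for the 10 germline genes. Triangles sit at 2.99% for Dazl and between 58.1% and 95.03% for the other 9, while 86.8% of promoters lie at 10% or less. The Dazl value comes almost only from a stretch downstream of its methylated 5′-most start.

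Among the factors of the piRNA pathway, which silences transposons in germ cells, Asz1 had the highest mean level of all 10 genes, by a margin within the spread between animals. Asz1 encodes an ankyrin-repeat protein of the germ granules in which piRNAs are made. Its level in the Wt animals was 98.1%, 93.8% and 91.9% in females 1 to 3 and 93.6% in male 1, and the Tg animals ran from 90.3% through a median of 95.7% to 100%. Mael, the maelstrom factor of the same pathway, stood at 93.2%, 94.2% and 84.6% in the Wt females and 86.9% in Wt male 1, with Tg animals at 70.5%, 89.0% and 98.3% (lowest, median and highest). Both genes were high in every animal, and the Wt values lay inside the range of the Tg values. Tdrd1 encodes a Tudor-domain scaffold that gathers the piRNA proteins. It was intermediate, with 73.2%, 64.9% and 64.8% in the Wt females, 49.9% in Wt male 1, and 38.7%, 61.7% and 72.2% as the lowest, median and highest Tg value. The groups overlapped in all 3 genes.

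The genes of the synaptonemal complex and the meiotic chromosome axis were likewise methylated, at 2 different levels. Sycp1 encodes the transverse filament of the synaptonemal complex. Its Wt values were 95.3%, 93.5% and 96.2% in the females and 91.9% in the male, and its Tg values were 91.0%, 93.2% and 100%. Hormad1, a HORMA-domain protein of unsynapsed axes, was nearly as high, at 89.5%, 87.9% and 86.0% in the Wt females and 88.8% in Wt male 1. Its Tg animals had 71.2%, 88.7% and 95.2%. Sycp3, a protein of the lateral elements, was lower and more variable, at 75.9%, 67.2% and 62.2% in the Wt females, 54.9% in Wt male 1, and 22.2%, 67.2% and 72.5% in the Tg animals. The lowest of these came from Tg female 4, which listed a single Sycp3 site with 18 reads, at -912 bp. At that site 6 other animals ranged from 11.1% to 66.7%, so the value compares another position and not the promoter as a whole.

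Both genes of the late male germline were high. Slc25a31, the ADP/ATP carrier of meiotic and later male germ cells, stood at 90.3%, 86.2% and 81.1% in the Wt females and 85.8% in Wt male 1, with Tg values of 81.8%, 84.65% and 91.8%. Brdt encodes a testis bromodomain protein that reads acetylated histones. It stood at 94.7% and 92.7% in Wt females 1 and 3 and 100% in Wt male 1, and at 85.4%, 95.1% and 100% in the Tg animals. Wt female 2 and Tg female 2 listed no Brdt site, and its 9 sites all lay inside the gene, between +507 and +790 bp. Brd2, a relative of Brdt that body tissues use, had a promoter level of 0.472%.

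The level of Ddx4 depended on the sites taken, since over all its sites it was at 67.6%, above Tdrd1 (62.1%) and Sycp3 (61.9%). Over sites in all libraries Ddx4, the vasa RNA helicase by which germ cells are recognised, had 65.2%, 41.2% and 60.5% in the Wt females, 41.9% in Wt male 1, and 48.2%, 58.4% and 77.2% in the Tg animals. This rested on 9 neighbouring sites on 1 strand. Dazl, an RNA-binding translation factor of germ cells, had 3.62%, 0.816% and 4.14% in the Wt females and 2.37% in Wt male 1, with 2.27%, 2.90% and 3.96% in the Tg animals. Low and high parts of Dazl were measured to very different degrees, as described further on.

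**Figure D2:**
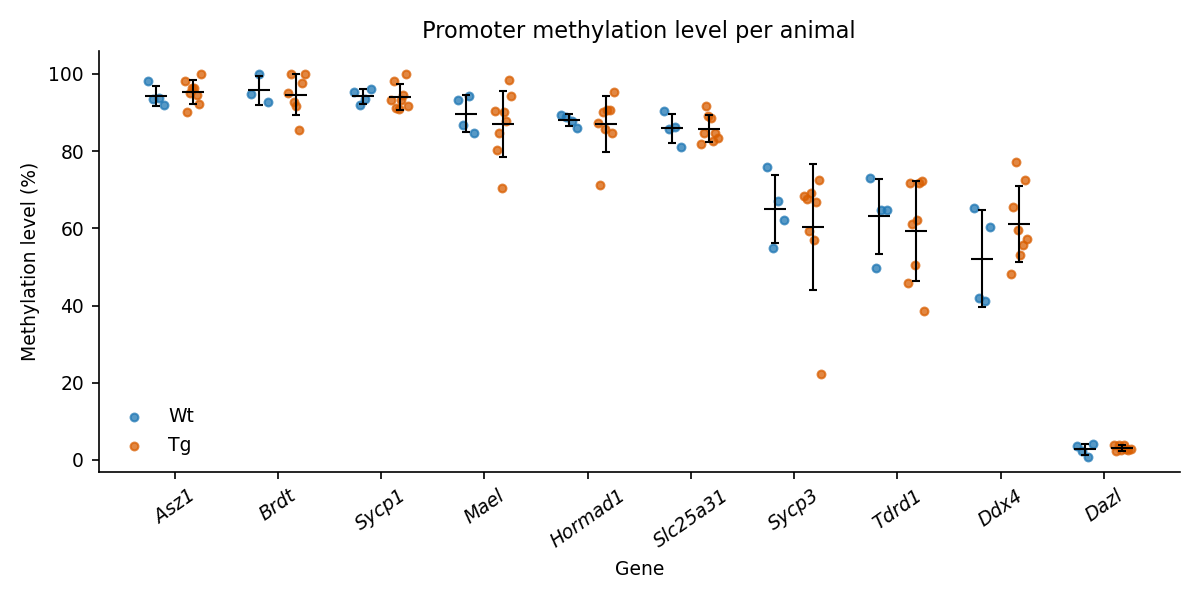
Promoter methylation level (%) of the 10 genes, 1 point per animal, in Wt (left of each pair) and Tg (right of each pair), with the mean and SD as a bar with whiskers. Genes are ordered by their mean, from 95.03% in Asz1 to 2.99% in Dazl, and the Wt and Tg points overlap in every gene.

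In order, the means over animals (± SD) were 95.03% ± 2.90 for Asz1, 94.98% ± 4.68 for Brdt (n = 10), 94.1% ± 2.83 for Sycp1, 87.9% ± 7.45 for Mael, 87.3% ± 5.82 for Hormad1, 85.8% ± 3.48 for Slc25a31, 61.9% ± 13.97 for Sycp3, 60.6% ± 11.7 for Tdrd1, 58.1% ± 11.1 for Ddx4 and 2.99% ± 0.960 for Dazl (n = 12 for the other 9). Neighbours in this order overlapped in their ranges at 7 of the 9 steps. The exceptions were the step of 23.9 points from Slc25a31 to Sycp3 and that of 55.1 points from Ddx4 to Dazl.

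Dazl was split into a methylated and an unmethylated stretch. The boundary lay in its first intron. Upstream of it, 26 sites between -477 and +488 bp of the 5′-most start (chr17:50293148-50294113) had a median level of 94.0%, and ran from 42.7% to 100%. The stretch was not even. The sites at chr17:50293242 and chr17:50293263 had 46.05% and 39.5% in Tg and 51.8% and 52.2% in Wt animals. Over the whole stretch the level was 81.7%, 87.0% and 88.1% in the Wt females and 89.7% in Wt male 1. It was 80.7%, 84.6% and 88.3% (lowest, median and highest) in the Tg animals. Downstream, 89 sites between +506 and +894 bp (chr17:50292742-50293130) had a median of 1.12%. There the level was 2.35%, 0.358% and 3.19% in the Wt females, 1.90% in Wt male 1, and 1.85%, 2.45% and 3.10% in the Tg animals. The stretches did not overlap in any animal, and within each stretch the Wt and Tg animals did overlap. Of the 60 Dazl sites listed in all libraries, 58 lay in the downstream stretch, so the gene-level value of 2.99% was nearly that stretch alone. Taken over the sites within 500 bp of the 5′-most start, Dazl stood at 85.1%. A second annotated start (Dazl-204) lies inside the unmethylated stretch, 744 bp downstream of the first. Between -477 and +159 bp no Dazl site was listed in 6 or more libraries. The 33 sites there that 1 to 5 libraries listed, in 8 animals in all, had levels of 78.95% to 100%, with 1697 of 1747 reads methylated (a read counted at each site).

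The change of level took place within a few CpGs, shown here as 124 bases of the intron (GRCm38.p6, chr17:50293086-50293209, minus strand) with the measured CpGs in capitals.
Dazl boundary: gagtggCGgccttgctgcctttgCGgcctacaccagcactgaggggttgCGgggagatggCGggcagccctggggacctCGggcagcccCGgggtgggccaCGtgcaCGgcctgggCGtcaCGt
From left to right, with the reads of both strands and all animals summed, the first 3 CpGs (+434, +451 and +477) stood at 88.3%, 86.3% and 84.4%. The fourth, at +488, was at 63.9%, and the fifth, at +507, was at 17.7%, so the level fell across 19 bases. The next CpG, at +517, had 16.3%. The last 4 (+529 to +549) had 2.77%, 7.37%, 7.74% and 4.81%, and the E-boxes of this intron hold the first and the last of them. Strands of a CpG gave similar values, for example 62.4% and 65.4% at +488, and 11.9% and 19.8% at +517. Over the 54 Dazl CpGs read on both strands, the median absolute difference between the strands was 0.806 points. Most of these CpGs lie in the unmethylated stretch, where strands have little room to differ. The largest difference was 7.89 points. The unmethylated stretch was denser in CpGs, with 11.8 per 100 bases, than the methylated one, with 7.14.

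**Figure D3:**
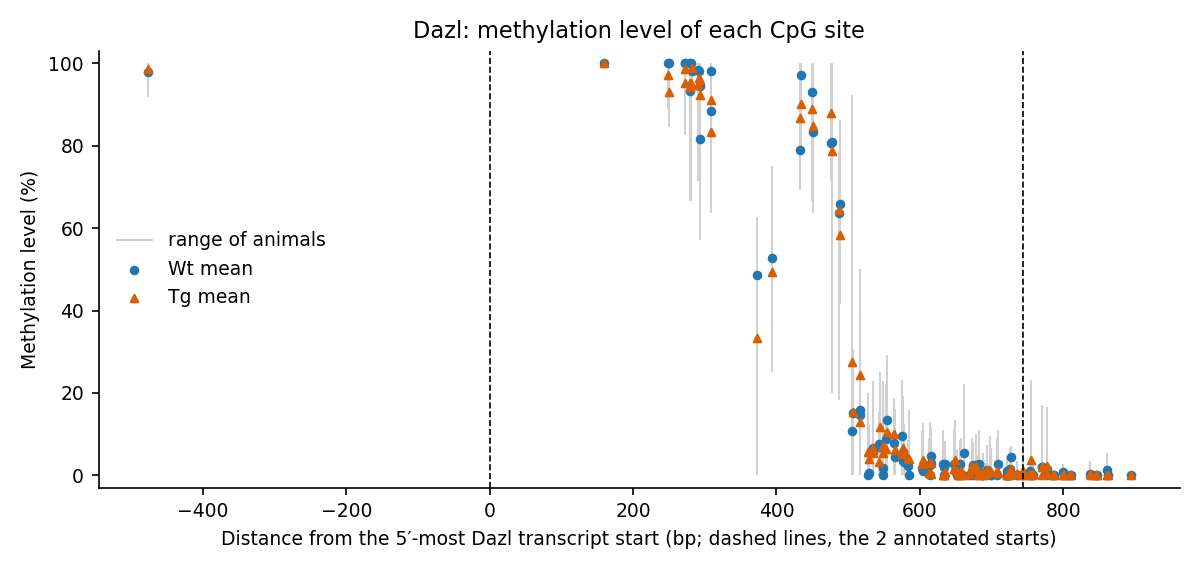
Methylation level (%) of each Dazl CpG site against its distance (bp) from the 5′-most transcript start, as the mean of Wt (circles) and of Tg animals (triangles), with grey lines for the range over animals and dashed lines for the annotated starts. Sites up to +488 bp have a median of 94.0%, and those from +506 bp on have a median of 1.12%.

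At the other 9 genes no measured site was at 10% or less, although levels differed from CpG to CpG. Several of them were measured over a short span only. From the nearest annotated start it was -120 to +110 bp in Asz1, -27 to +148 bp in Mael and +71 to +267 bp in Tdrd1. A break outside the measured span would not have been seen. Site levels ran from 88.3% to 100% in Asz1, 87.4% to 100% in Brdt, 78.4% to 100% in Sycp1 and 74.7% to 97.4% in Mael. They were wider in Hormad1 (51.5% to 100%), Slc25a31 (60.3% to 99.3%), Sycp3 (33.9% to 89.2%), Tdrd1 (39.8% to 88.4%) and Ddx4 (24.0% to 97.9%). These differences recurred on the opposite strand: across 128 CpGs outside Dazl that were read on both strands, Pearson's r between strands was 0.896 and the median absolute difference was 3.89 points. The strands of a CpG come from the same animals and fragments of the same region, and the CpGs are not independent. Slc25a31 was the exception among genes with at least 8 such CpGs, with r = -0.051 over 11 CpGs. In Ddx4 the 3 CpGs just upstream of its first exon (-16 to -28 bp) were at 88.1% to 97.9%, while those inside the transcribed part reached down to 24.0%.

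**Figure D4:**
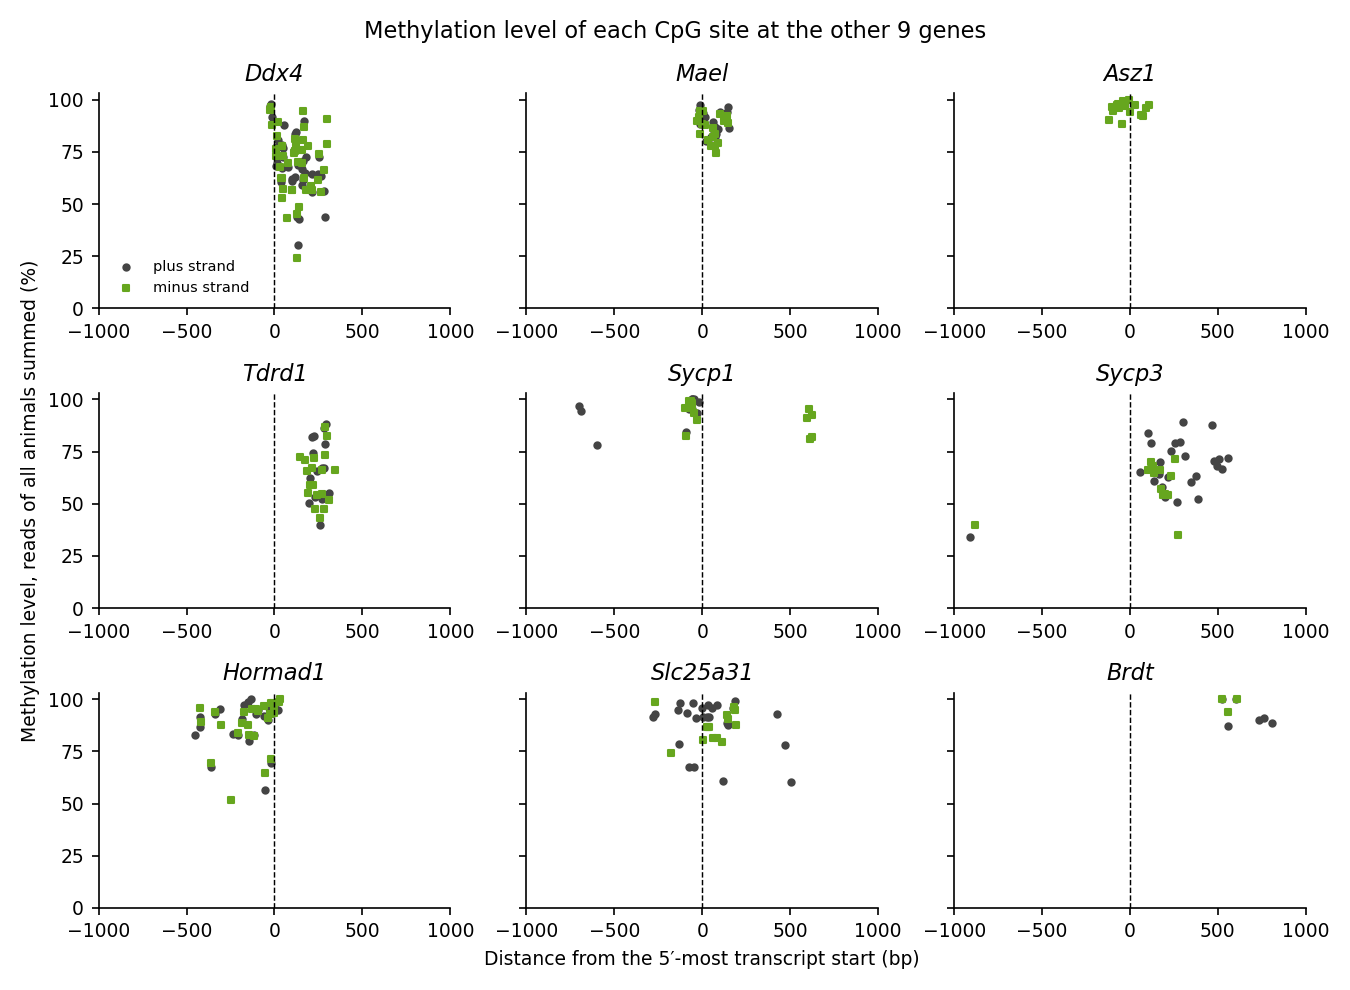
Methylation level (%, reads of all animals summed) of each CpG site of the other 9 genes against its distance (bp) from the 5′-most transcript start, with circles for the plus strand and squares for the minus strand. Asz1 and Brdt stay above 87%, Ddx4 reaches down to 24.0%, and both strands follow the same course in most genes.

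CpGs inside an E-box stood below their surroundings. Of the 8 E-boxes of these genes with measured sites around them, 6 lay in methylated sequence and the remaining 2 in the unmethylated stretch of Dazl. In Ddx4 (+139 bp, printed above) the CpG inside the E-box was at 45.0%, against a median of 69.7% for 34 other sites within 50 bp. It was lower than that median in 12 of 12 animals, but it was not the lowest CpG there. Close by and outside the E-box, the CpG at chr13:112652344 had 30.3% and 24.0% on its plus and minus strand. That at chr13:112652348 had 43.7% and 45.3%. In Hormad1 the E-box at -55 bp was at 59.6% against 94.0% for 14 sites (lower in 9 of 10 animals), and that at -18 bp was at 70.3% against 95.2% for 19 sites (8 of 10). In Slc25a31 the E-box at -75 bp had 67.3% against 92.2% for 4 sites (6 of 7 animals), of which the lowest had 67.6%. In Sycp1 the E-box at -91 bp had 83.2% against 98.4% for 13 sites (8 of 12), and that at +616 bp had 81.0% against 91.9% for 4 sites (9 of 11). The lowest site around the former had 93.3%, and the lowest around the latter had 82.2%. Counted per strand, all 10 E-box sites were at least 10 points below the median of their surroundings, with a median difference of -24.3 points. Outside these genes 40.69% of 1627 E-box sites in sequence with a median of 50% or more did so, with a median difference of -7.36 points. For CpGs without ACGT at their centre the corresponding share was 16.54% of 250318 sites, and 11.99% of 317 sites of the germline genes. This comparison was chosen after the levels had been seen and was not tested. Sequence context and reads differ between these sites, and their part in the difference was not tested.

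**Figure D5:**
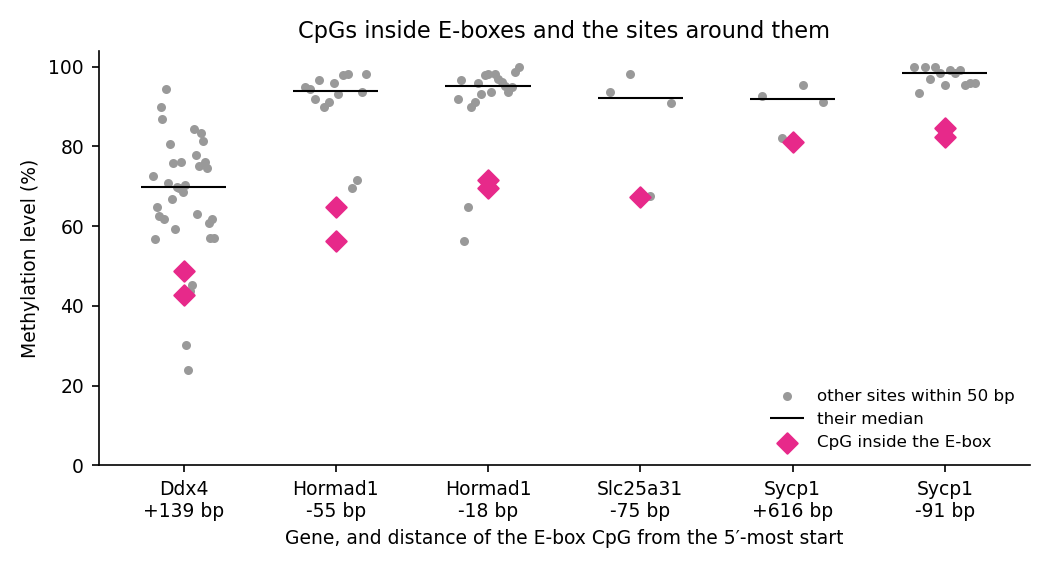
Methylation level (%, reads of all animals summed) of the CpG inside each of 6 E-boxes in methylated sequence (diamonds, 1 per strand read), with the other sites within 50 bp (grey points) and their median (line). Every diamond lies below the line of its own group, with medians of 69.7% to 98.4%.

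Whether the transgenic animals differed at these promoters was asked at the level of sites and of promoters. At single sites the binomial model, a logistic regression of reads on genotype and sex, called 2 of the 96 member sites listed in all libraries. A call took a Benjamini-Hochberg adjusted p under 0.1 and a difference of at least 10 points. The share called was 1.72% of all sites. Among sites at 10% methylation or more it was 15.8%, beside 2 of the 39 member sites at that level. The overdispersion model, in which the spread between animals of equal genotype and sex enters the error, called 0 of the 96 and 0.0% of all 980547 sites, with 5 of the 96 and 10.9% of all sites at an unadjusted p under 0.05. The Wt and Tg ranges were apart at 0 of the 96 sites, against 0.0709% of all sites. The binomial calls were 1 site higher and 1 lower in Tg animals. Among the 282 sites listed in at least 3 Wt and 6 Tg libraries, the binomial model called 31, of which 12 were higher in Tg. The share called was 4.11% of all such sites. At 10% or more it was 16.6%, beside 31 of the 198 member sites at that level. The overdispersion model again called 0 (0.0% of all), with 17 of the 282 at an unadjusted p under 0.05, against 9.5% of all such sites.

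The site called higher was in Ddx4, at chr13:112652344 (plus strand, 131 bp inside the 5′-most start, in the untranslated part of the first exon). Its level in the Wt animals was 44.4%, 0% and 0% in females 1 to 3 and 0% in male 1, and 11.1%, 39.2% and 100% were the lowest, median and highest Tg value. Wt female 1 thus lay inside the Tg range and the other 3 Wt animals below it. The difference in read-weighted level was 29.4 points, with a binomial adjusted p of 1.046e-06 and an overdispersion adjusted p of 0.490. On the opposite strand, read in 9 animals, Wt female 3 had 14.8% and Wt female 1 had 26.7%, and the lowest Tg animal lay below both. The site called lower was in the first intron of Tdrd1, at chr19:56826477 (plus strand, +268 bp of the 5′-most start). It had 63.8%, 77.3% and 69.8% in the Wt females, 38.1% in Wt male 1, and 16.7%, 45.1% and 100% in the Tg animals. It differed by -16.7 points with adjusted p-values of 0.0554 (binomial) and 0.632 (overdispersion), and the groups overlapped. The cytosine opposite it differed by 2.86 points the other way.

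At whole promoters the overdispersion model, fitted over 16480 genes, called 0 of the 5 genes with sites in all libraries, and 0.0% of all promoters. None of the 5 had an unadjusted p under 0.05, against 6.01% of all promoters. Ddx4 was 8.43 points higher in Tg animals by summed reads (adjusted p = 0.925 in the overdispersion model, p = 0.206 in a two-sided exact permutation test of the animals' levels). The 95% interval of its difference, from a linear model of the animals' levels on genotype and sex, was -7.26 to 25.01 points. Tdrd1 was 4.72 points lower (adjusted p = 0.967, exact permutation p = 0.594, interval -21.5 to 14.6). Asz1 differed by 1.20 points (adjusted p = 0.931, exact permutation p = 0.596), with an interval of -2.96 to 5.75. Slc25a31 differed by 1.49 points by summed reads (adjusted p = 0.999, exact permutation p = 0.984), and its interval, on levels that weight animals equally, was -5.54 to 3.50. Dazl differed by 0.417 points (adjusted p = 0.943, exact permutation p = 0.527), with an interval of -1.07 to 1.90. Differences of 10 points in Asz1 and Slc25a31 thus lay outside the intervals. The interval of Tdrd1 allowed them in both directions and that of Ddx4 only toward higher levels in Tg animals. In Dazl, at a level of 2.99%, a fall of 10 points was not possible. Its interval describes almost only the unmethylated stretch, and not the methylated part around the 5′-most start. The direction for Ddx4 was not stable, as it became -0.645 points over the 41 sites listed in at least 3 Wt and 6 Tg libraries. Leaving out the library labelled Wt male 1 gave 6.35 points in Ddx4, -7.95 in Tdrd1, 0.972 in Asz1, 1.72 in Slc25a31 and 0.281 in Dazl. Of the 5 genes, 0 were called in that fit (0% of all promoters).

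The 5 genes without sites in all libraries could be compared only over libraries with fewer sites. Over the sites in at least 3 Wt and 6 Tg libraries, Hormad1 was 4.65 points higher in Tg, Sycp3 2.001 higher and Brdt 0.442 higher, while Sycp1 (-2.67) and Mael (-3.14) were lower. Of all 10 genes, 0 were called in this fit (0.0% of 19296 promoters, overdispersion model), and 0 had an unadjusted p under 0.05, against 5.79% of all. Fits over these sites compare different sites in different animals. Each animal was therefore also set against the other animals at the same sites, with a two-sided exact permutation test. It called 0 of the 10 genes (0.0% of 20469 promoters) and gave 0 of the 10 an unadjusted p under 0.05, against 4.36% of all. In this comparison the exact p was 0.699 for Hormad1 (-1.82 points), 0.552 for Mael (-2.81), 0.558 for Brdt (-2.37), 0.980 for Sycp3 (0.162) and 0.980 for Sycp1 (0.0813). The 2 differences largest in size were -4.39 points in Tdrd1 (exact p = 0.244) and -4.22 in Ddx4 (exact p = 0.121), and the smallest p this test can give is 0.00202 (0.00833 for Brdt).

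By sex, 0 of the 5 genes were called and 0.0% of all promoters. Slc25a31 was 4.44 points higher in males by the labels (overdispersion model, unadjusted p = 0.0486, adjusted p = 0.672, two-sided exact permutation test p = 0.0732). Leaving out the library labelled Wt male 1 gave a difference of 5.06 points, also not called. Without that library the same fit called 1.76% of all promoters for sex and still 0 of these 5. The differences of the other 4 genes had adjusted p-values of 0.916 to 0.968.

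The dispersion, which is 1 when reads are independent and animals vary by counting alone, was 19.3 in Tdrd1, 16.7 in Ddx4, 10.6 in Dazl, 3.93 in Asz1 and 1.79 in Slc25a31. Its median was 4.28 over the 385 promoters at 50% or more and 6.49 over all promoters, and it was above 1 in 99.53% of all promoters. A read that covers several sites is counted at each, which raises this value without any difference between animals. In points, the SD over the 12 animals was 11.7 in Tdrd1 and 11.1 in Ddx4, against a median of 7.72 over promoters at 50% or more, of which 80.8% and 78.4% had a smaller SD. It was 3.48 in Slc25a31 and 2.90 in Asz1, with 12.7% and 7.79% of those promoters below. Reads that cover several sites are counted more than once in these promoter values.

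Other germline genes followed both patterns. Of 65 on lists of related function, 42 had at least 3 sites: 24 were at 50% or more, 15 at 10% or less and 3 between. Under the rule of the highest and lowest levels among genes with sites in all libraries, the piRNA list was led by Tdrd9, a helicase (93.0%), and Rnf17, a Tudor protein (71.4%), and ended with Tdrd5 (1.23%) and Exd1 (0.764%). Among the 11 meiosis genes with sites in all libraries, Meioc (50.8%) and Prdm9, which marks recombination hotspots (11.5%), were highest, and Mei4 (0.707%) and the cohesin subunit Stag3 (1.04%) were lowest. Without that limit the meiosis list reached 95.8%, with 7 of its 18 measured genes at 50% or more. In the list of identity and other germ cell genes, Sohlh2, a transcription factor of early germ cells, had 98.2%, Taf7l 75.2% and Boll, the relative of Dazl, 8.39%. Among testis-specific relatives of housekeeping genes, Pdha2 had 97.4%. Of the 21 of these genes tested, 0 were called in either direction (overdispersion model), 1 had an unadjusted p under 0.05 (against 6.01% of all promoters), and the median difference was -0.249 points, beside 0.0136 over all promoters.

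The genes for the enzymes and repressors that act on germline promoters had unmethylated promoters, as most protein-coding genes did. Of those measured, 15 of 15 were at 10% or less, against 86.8% of all protein-coding promoters with at least 3 sites. The same share stands beside the counts of the next lists. Levels ran from E2f6 (1.88%) and Kdm5c (1.55%) down to Cbx3 (0.570%) and Setdb1 (0.321%). Of 6 somatic relatives, 5 were at 10% or less, with Slc25a5, which lies on chromosome X, at 18.3%, followed by Brd3 at 0.906%. Promoters of neuronal genes were unmethylated in 5 of 5, from Rbfox3 (1.07%) and Gad1 (1.28%) to Snap25 (1.87%) and Syt1 (1.94%). The oligodendrocyte gene Mbp had 4.10%, and the astrocyte gene Aldh1l1 had 26.1%. Krt5, an epithelial keratin, had 78.95%. These lists were tested in the same fit, which called 0 of 15, 6, 5, 1, 1 and 1 genes respectively, and only Krt5 among them had an unadjusted p under 0.05. A promoter level does not measure expression, so the tissue could not be checked by its transcripts.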

How the data were processed

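According to the labels and the study's methods, genomic DNA of 12 brains went through RRBS on an Illumina sequencer, was aligned to mm10 and called by Bismark, and was read into methylKit (versions not given in the sources used here). The deposited values are counts of reads per cytosine of a CpG (coverage, C reads and T reads), 1 file per animal, which the authors kept apart by strand and limited to at least 10 reads. The whole-library coverage is given in the report.

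Sites were joined over the 12 files with Python 3.11.15 and numpy 2.4.6, leaving out 11 positions listed more than once. Genotype was fitted with sex as covariate, and sex with genotype, at every site listed in all 12 files and at every promoter with at least 3 such sites, by a logistic model with a likelihood-ratio test (binomial model) and by the same model with its deviance scaled by an estimated dispersion of at least 1, with an F test (overdispersion model). Both used Benjamini-Hochberg adjustment over all features. Both models were tested on simulated data. Intervals came from a linear model in statsmodels 0.14.6. Samples were grouped by their titles, and replicate numbers only name animals. The labels do not say more than that each sample is a separate animal of the group. The p-values of the overdispersion model and the permutation tests measure the spread between these animals. Those of the binomial model take in only the counting error of reads. The genes, the lists and the rule for naming genes and sites (all 10 genes, the 2 highest and 2 lowest of every other list, and called sites up to 6) were chosen with earlier results of these data known. One gene that the rule names is not reported here. Alternatives varied the read minimum, site set, window, covariate, strands, model, threshold and the animals. Those chosen after seeing the data were the window around the 5′-most start, the levels centred per site and the permutation test over the sexes.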

Additional observations from a re-analysis of the deposited data

Results flagged for a closer look

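Animals far from the rest of their genotype were looked for in 19 groups (10 genes in 2 genotypes, without the 3 Wt animals with Brdt sites) by Dixon's ratio at the 95% level, which flags about 1 in 20 groups by chance. In Sycp3, Tg female 4 had 22.2% and the nearest other Tg animal 57.015%, from a single listed site with 18 reads. With every animal set against the others at the same sites, it had 53.0%, beside 57.01% in the next lowest Tg animal. In Hormad1, Tg male 1 had 71.2% and the nearest other Tg animal 84.8%, from 20 listed sites with 250 reads in sum. Set against the others at the same sites, it stayed the lowest of the Tg animals at 73.1%.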

How the results depend on the processing

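No member site was called by the overdispersion model, and no member promoter for genotype or sex, under any alternative. The adjusted p-values over the alternatives other than the binomial model were 0.839 to 1 for genotype and 0.544 to 1 for sex. The number of sites called by the binomial model was the least stable, and the share called over all sites, given in brackets, moved as well. Over sites in at least 3 Wt and 6 Tg files, 31 of 282 were called (4.11%). With a minimum of 20 reads, 0 of 41 were called (0.475%). Of 96 sites, 6 were called without the covariate (1.94%), 6 in the 7 females alone (2.13%) and 4 at a threshold of 5 points (3.68%). With strands summed, 6 of 111 CpGs were called (2.11%). With 1 animal left out, 2 to 5 of the 96 were called (1.35% to 2.25%), with 4 without Wt female 1 and 5 without Tg female 1. The median level of the genes was 80.3% with a minimum of 20 reads, which left 9 genes, and 86.2% to 87.3% with 1 animal left out. The genotype difference of Ddx4 turned to -0.645 over sites in at least 3 Wt and 6 Tg files and to -4.22 with levels centred per site. That of Slc25a31 turned to -1.74 in the females, -0.038 in the permutation test and -0.677 with an unweighted mean. With 1 animal left out, the genotype difference ran from -0.212 to 1.004 points in Dazl and from -0.680 to 2.81 in Slc25a31, and the sex difference from -0.438 to 0.194 in Dazl and from -1.07 to 0.415 in Asz1. The sex difference of Dazl, -0.0452 by summed reads, was 0.00129 in the permutation test. The cause was not tested. No paired analysis was made, because every library is a separate animal of 1 genotype and the labels name no pairs. Missing sites limit Mael, Sycp1, Sycp3, Hormad1 and Brdt most.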

Other observations

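CpGs with ACGT at their centre were also lower than their surroundings outside the E-boxes, and the cause was not tested. Over sites outside the 10 genes whose surroundings had a median of 50% or more, CpGs with ACGT at their centre but outside an E-box had a median difference of -3.87 points from the other sites within 50 bp (7934 sites, 29.44% at least 10 points below), between the -7.36 points of E-boxes and the -0.025 points of the remaining CpGs. Of the germline genes, 4 sites had ACGT outside an E-box, and all 4 were at least 10 points below their surroundings.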
